A study of Mus musculus with 48 samples.

Results

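The BMP genes described here are 9 mouse genes chosen by name: the ligands Bmp2, Bmp4, Bmp5 and Bmp7, the target genes Id1, Id2 and Id3, and the inhibitory Smads Smad6 and Smad7. All 9 were found among the 22173 genes of the stage count table, the 13682 genes of the FPKM table and, by Ensembl identifier, the 32285 genes of the 10x table.

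BMP ligands are secreted proteins that bind type I and type II receptor kinases at the cell surface. The receptors phosphorylate Smad1, Smad5 and Smad9, which join Smad4 in the nucleus and switch on genes such as Id1, Id2 and Id3. The Id proteins bind basic helix-loop-helix factors and keep them from DNA, and Smad6 and Smad7 are induced by the same signal and dampen it. In the fetal ovary BMP2 is known as a ligand made by somatic cells that acts on germ cells, and BMP4 is known for inducing the germ line in the epiblast and for directing mesoderm.

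The series holds 48 samples, and these results use 39 bulk RNA-seq libraries and 1 10x library, all of C57BL/6 mice or cells by the labels. Gonadal somatic cells (GSCs) had 2 libraries at each of 3 embryonic stages, named by the day of gestation (E12.5, then E13.5, then E16.5), and 2 at 6 weeks after birth (P6w). GSCs of E12.5 were described as the SSEA1-negative flow-through of magnetic sorting of dissociated gonads, a depletion of germ cells that does not select any one somatic type. E12.5_GC, 3 libraries, was labelled as separated from female gonads at E12.5. The cultured cells came from female embryonic stem cells (ESCs) plated on fibronectin in differentiation medium. Con received no compound, Vc vitamin C, AM580 an agonist of retinoic acid receptor alpha, and V580 both compounds. Each had 2 libraries at 24 h and 2 at 48 h, and V580 cells of days 4, 6, 8 and 10 (D4 to D10) had 3 each. V580 cells of day 6 were also the source of the 10x library. The labels do not say whether replicates came from separate animals or cultures, so p values measure the spread between these libraries, which may be technical.

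The stage libraries held 12694769 to 22259044 counts, and the FPKM libraries about 16400000 to 28300000 fragments, recovered as described under processing. By the labels, the second E16.5 library and both P6w libraries ran on lane 1 and the other 5 stage libraries on lane 5. The summed level of 8 erythroid genes was 32435 to 35072 CPM at E13.5, 10615 to 15669 at E12.5 and E16.5, and at most 294 at P6w. The 4 Y-linked genes Ddx3y, Uty, Kdm5d and Eif2s3y summed to 8.40 to 9.50 CPM in the E12.5 libraries and to at most 0.254 in the other 6. Supporting-cell markers were present at all stages (1472 to 2686 CPM summed over 11 genes), while 9 interstitial markers summed to 3086 to 3394 CPM at E16.5 and 504 to 1180 at the other stages. The part of these markers in the results below was not tested. In bulk samples, fewer cells of a type and less RNA per cell cannot be told apart.

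Positions are given on GRCm38 with GENCODE vM21. The ligands are Bmp2 at chr2:133552159-133562885 (plus strand), Bmp4 at chr14:46383520-46390669 (minus), Bmp5 at chr9:75775364-75900310 (plus) and Bmp7 at chr2:172868012-172940321 (minus). The Id genes are compact, with Id1 at chr2:152736251-152737410 (plus), Id2 at chr12:25093799-25097140 (minus) and Id3 at chr4:136143497-136145755 (plus). Smad6 lies at chr9:63953076-64022059 (minus). The summed exons ran from 1160 bases in Id1 to 4521 in Smad7.

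Promoter windows, the 250 bases before the RefSeq start (GRCm38.p6), were matched for 5 of the 9 genes, Bmp4, Bmp5, Id2, Id3 and Smad6. The 3 motifs searched on both strands were GGCGCC, a GC-rich element bound by BMP-regulated Smads, GTCTG, the Smad-binding element that reads CAGAC on the other strand, and AGGTCA in direct repeat with 5 bases between, a form bound by retinoic acid receptors. The matches in Id2 and Id3 are shown because these targets moved with AM580 in the cultured cells, with the motif in capitals. The Id2 stretch (chr12:25096254-25096342, minus strand) lies between annotated exons, and both Id3 stretches (chr4:136143645-136143669 and chr4:136143744-136143768, plus strand) lie within an annotated exon.
Id2, GGCGCC: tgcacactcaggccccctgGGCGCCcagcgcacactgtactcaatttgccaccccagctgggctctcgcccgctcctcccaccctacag
Id3, GTCTG as CAGAC: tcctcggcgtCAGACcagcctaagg
Id3, GTCTG: acccttggcgGTCTGttttgaataa
The Id2 match began 231 bases before the start and the Id3 matches 167 and 68 bases before it. Bmp5 held 1 GTCTG, 134 bases before its start, and the windows of Bmp4 and Smad6 held none of the 3 motifs. Of 32851 such windows in the genome, 9.59% held GGCGCC, 42.2% GTCTG and 0.00913% the repeat, which none of the 5 held. The matches describe letters in these windows, and binding was not measured.

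The first comparison asked how the genes changed in GSCs from the sex-determination period to the adult ovary. Between E12.5 and P6w, all 4 ligands, Id1, Id2 and Smad7 fell, whereas Id3 and Smad6 did not pass the test (Id3 passed, lower, with a lane term). Bmp7, a ligand best known for kidney and eye development, had 361 and 346 counts at E12.5, then 305 and 286 at E13.5, 267 and 136 by E16.5, and 15 and 10 at P6w. The means were 16.9 ± 0.263, 15.9 ± 0.578, 9.94 ± 2.29 and 1.03 ± 0.278 CPM (SD, n = 2 each). The P6w libraries lay below every embryonic library, and Bmp7 fell from E12.5 to P6w with a log2 fold change of -4.03 ± 0.29 (SE; edgeR adjusted p = 1.66e-08).

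Bmp5, a ligand related to Bmp7 in sequence, was the least counted ligand. It had 95 and 72 counts at E12.5, then 48 and 35 at E13.5, 51 and 16 by E16.5, and 2 and 0 at P6w. With 167 counts at E12.5 against 2 at P6w, the ratio of the depth-scaled counts was 48.4 (95% interval 13.2 to 403, counting error only), and against E16.5 it was 20.6 (5.49 to 174). Both falls to P6w passed the test (edgeR adjusted p = 2.34e-05 against E12.5 and 0.000582 against E16.5). Bmp5 passed the filter on low counts only through embryonic stages, where it was high, so a fall to P6w was built into its being tested.

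Bmp4 had 238 and 189 counts at E12.5, then 143 and 186 at E13.5, 166 and 132 by E16.5, and 31 and 55 at P6w. Its means were 10.2 ± 1.19, 8.94 ± 2.36, 7.63 ± 0.632 and 3.56 ± 1.45 CPM (SD, n = 2 each), and the embryonic stages overlapped or lay close together. None of the comparisons among embryonic stages passed for Bmp4, and at P6w it was lower than at E12.5 by a log2 fold change of -1.52 ± 0.30 (edgeR adjusted p = 0.000533).

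Bmp2 moved up and down. It had 637 and 562 counts at E12.5, then 341 and 277 at E13.5, 767 and 821 by E16.5, and 213 and 255 at P6w, or 28.6 ± 1.23, 16.6 ± 1.08, 41.7 ± 12.1 and 19.3 ± 2.70 CPM (SD, n = 2 each). The E13.5 and P6w libraries lay below all E12.5 and E16.5 libraries. Bmp2 fell from E12.5 to E13.5 (log2 fold change -0.79 ± 0.19, edgeR adjusted p = 0.00402), rose from E13.5 to E16.5 (1.33, 4.7e-05) and fell from E16.5 to P6w (-1.11, 0.000218). The E16.5 level above E12.5 (0.54 ± 0.19, edgeR adjusted p = 0.0356) rested on the second E16.5 library, at 50.2 CPM against 33.2 in the first: without it the change was 0.21 (adjusted p = 0.35), and with a lane term 0.21 (0.324).

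Smad7 (chr18:75367529-75395935, plus strand), an inhibitor that acts on BMP and TGF-beta receptors alike, followed a similar course. Its counts were 359 and 374 at E12.5, then 168 and 140 at E13.5, 473 and 446 by E16.5, and 105 and 129 at P6w, or means of 17.6 ± 1.31, 8.26 ± 0.389, 23.9 ± 4.82 and 9.66 ± 1.53 CPM (SD, n = 2 each). As for Bmp2, the E13.5 and P6w libraries lay below those of E12.5 and E16.5. Smad7 fell from E12.5 to E13.5 (log2 fold change -1.09 ± 0.20, edgeR adjusted p = 0.000516), rose to E16.5 (1.53, 1.83e-05) and fell to P6w (-1.30, 6.98e-05). Smad6, an inhibitor that acts mainly on BMP signals, was counted at only 20 to 64 per library. It had 36 and 41 counts at E12.5, then 45 and 25 at E13.5, 64 and 63 by E16.5, and 20 and 20 at P6w, and none of its 5 stage comparisons passed. In E12.5_GC, from the FPKM table, Smad6 had 870 to 1218 recovered fragments, and the cause of this difference was not tested.

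Among the Id genes, Id3 was counted most, with 47860 and 45933 counts at E12.5, then 51685 and 47056 at E13.5, 26332 and 38107 by E16.5, and 27758 and 29676 at P6w. Its means were 2243 ± 37.0, 2655 ± 41.1, 1736 ± 843 and 2369 ± 143 CPM (SD, n = 2 each), so that the adult level lay between those of E12.5 and E13.5. With a lane term, which rests on the 2 E16.5 libraries, the change of Id3 from E12.5 to P6w turned to a log2 fold change of -0.95 (edgeR adjusted p = 6.59e-06). The E16.5 libraries stood apart, at 1140 and 2332 CPM. Id3 was lower at E16.5 than at E13.5 (log2 fold change -0.61, edgeR adjusted p = 0.0276), but without the first E16.5 library, or with a length term, the change was -0.18 and did not pass.

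Id1 had 1648 and 1545 counts at E12.5, then 1736 and 1456 at E13.5, 586 and 1530 by E16.5, and 343 and 340 at P6w. The same first E16.5 library was low, at 25.4 CPM against 93.6 in the second, while E12.5 stood at 76.3 ± 0.0047, E13.5 at 85.6 ± 3.64 and P6w at 28.2 ± 0.196 CPM (SD, n = 2 each). Id1 fell from E12.5 to P6w (log2 fold change -1.44 ± 0.37, edgeR adjusted p = 0.00428; with DESeq2, 0.0571; with a lane term, a log2 fold change of -3.32). Its fall from E16.5 to P6w (-1.07, edgeR adjusted p = 0.023) rested on the second E16.5 library, and without that library the log2 fold change was 0.15.

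Id2 had 6194 and 5869 counts at E12.5, then 8155 and 7012 at E13.5, 9059 and 7102 by E16.5, and 1509 and 1641 at P6w. The means were 288 ± 2.15, 407 ± 10.2, 413 ± 30.1 and 129.9 ± 9.41 CPM (SD, n = 2 each), and P6w lay below all embryonic libraries. Id2 fell from E12.5 to P6w with a log2 fold change of -1.15 ± 0.12 (edgeR adjusted p = 7.02e-07) and rose from E12.5 to E16.5 (0.52 ± 0.11, 0.00215). Its rise from E12.5 to E13.5 (0.50 ± 0.11, edgeR adjusted p = 0.00222) fell to 0.12 (adjusted p = 0.399) with a length term. Log2 fold changes between these 2 stages ran with exon length across 16169 genes (Spearman correlation -0.494), and its part in the Id2 value was not tested.

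In counts, 7 of the 9 genes passed at P6w against E12.5, all lower, where 52.9% of 16398 genes passed and 27.5% were lower. The median log2 fold change of the 9 was -1.15, against -0.04 over all genes tested. Against E16.5, 7 of the 9 were lower at P6w, beside 56.1% of all genes called and 29.8% lower. Both of these counts hold Bmp5, which was tested only through embryonic stages, where it was high. From E12.5 to E13.5, 3 passed (45.9% of all genes), to E16.5, 4 (37.6%), and from E13.5 to E16.5, 4 (54.1%), shares near the background. These comparisons share libraries, so their values are not independent.

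**Figure D1:**
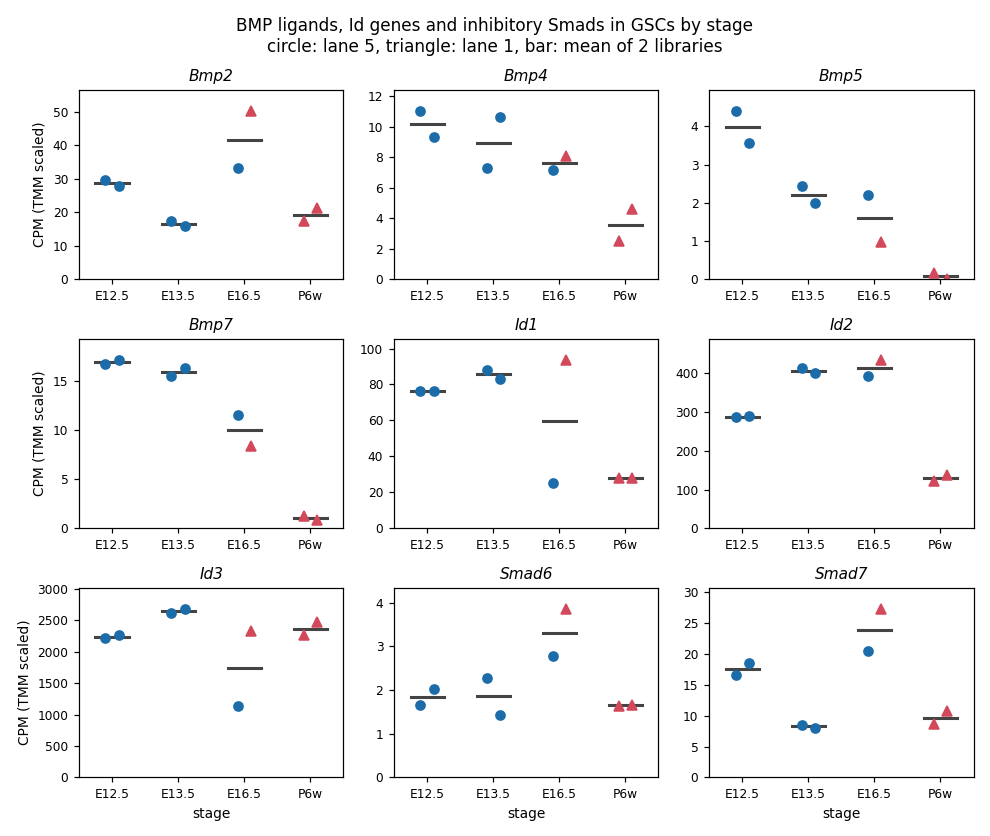
CPM (TMM scaled, y axis) of each gene in GSCs by stage from E12.5 to P6w; each point is 1 library, circles lane 5 and triangles lane 1, and bars are the mean of 2. Bmp2 and Smad7 are low at E13.5 and P6w, Bmp7 falls to 1.03 CPM at P6w, and the E16.5 libraries of Id1 and Id3 lie far apart.

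The other genes of the pathway, a list of 59 by role, had 52 tested in the stages, and 17 rose and 15 fell from E12.5 to P6w (25.4% and 27.5% of all genes; median log2 fold change of the 52, 0.09). Extracellular antagonists, which bind ligands and keep them from receptors, rose in 7 of 15 tested and fell in 2. Grem1 rose most, from 0.0247 to 226 CPM, and Crim1 rose by a log2 fold change of 3.24 and Chrdl1 from 0.0695 to 5.23 CPM. Grem1, Chrdl1 and the ligand Bmp15 passed the filter on low counts only through P6w, where they were high. The ligand Gdf6 and the target Msx2 passed it only through embryonic stages, where they were high. The direction of these changes was thus built into their being tested, and the counts of rises and falls hold these genes. Among other ligands 5 of 8 rose, including Bmp3 (0.215 to 100.9 CPM) and the oocyte ligand Bmp15, which was at 0 at E12.5 and at 3.24 CPM at P6w, and 1 fell, Gdf6 (1.81 to 0.0409 CPM). Receptors moved both ways, with the type I receptor Bmpr1b up by 4.23 and Acvrl1 at -1.87, and the type II receptor Bmpr2 up by 2.81 and Acvr2b at -1.25 (edgeR, log2 fold changes). Of 8 other targets tested, 6 fell, led by Msx1 (-4.71), Hey1 (-3.84) and Msx2 (-3.79), and 1 rose. Of the 4 signal Smads, Smad5 fell (-1.49) and the other 3 did not pass. From E12.5 to E13.5, 6 of the 52 rose and 19 fell (23.8% and 22.1% of all genes), and with a length term 4 rose and 17 fell (18.2% and 15.5%); the type II receptors Bmpr2 (-1.43), Acvr2b (-1.31) and Acvr2a (-1.01) were all lower, 2 of them also with the length term.

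The next comparison asked what Vc, AM580 and both did to ESCs within 48 h. FPKM is scaled to length, so levels of genes can be set side by side here. In Con cells of 48 h the mean FPKM was 41.3 for Id1, 26.1 for Id3, 19.98 for Smad7, 18.1 for Id2, 2.26 for Bmp4, 2.13 for Smad6 and 0.737 for Bmp7. Bmp2 stood at 0.0311 to 0.401 FPKM and Bmp5 at 0 to 0.0262 in the 16 libraries, under the filter of 1 FPKM, so 7 of the 9 were tested. Genes were called at a limma adjusted p below 0.05 and at least 2-fold on the log2(FPKM+1) scale, which understates changes of low genes.

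With AM580 for 48 h, Smad6 and Id3 rose, and 2 of the 7 were called beside 3.23% of all genes. Smad6 stood at 2.09 and 2.16 FPKM in Con, 2.18 and 2.57 in Vc, 8.29 and 8.73 in AM580, and 7.85 and 8.06 in V580. The libraries with AM580 lay above all others, and Smad6 was higher by a log2 fold change of 1.61 ± 0.072 in AM580 (SE; limma adjusted p = 1.35e-10) and of 1.52 ± 0.072 in V580 (2.57e-10), each against Con. In V580 Smad6 was the 1 gene of the 7 called, beside 3.18% of all genes.

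Id3 stood at 27.1 and 25.01 FPKM in Con, 17.5 and 16.4 in Vc, 61.4 and 64.9 in AM580, and 42.8 and 46.1 in V580. The 4 treatments did not overlap, in the order Vc, Con, V580, AM580. Id3 rose with AM580 by 1.25 ± 0.068 on the log2 scale (limma adjusted p = 1.29e-09), and its 0.75 in V580 stayed below 2-fold.

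Id1 and Id2 showed the same order of levels between Vc, Con and AM580. Id1 stood at 41.5 and 41.2 FPKM in Con, 29.9 and 30.2 in Vc, 79.1 and 81.3 in AM580, and 48.4 and 48.8 in V580, and Id2 at 17.5 and 18.7, 11.9 and 12.7, 34.1 and 34.2, and 19.6 and 19.0. In AM580 the log2 fold changes of 0.94 for Id1 (limma adjusted p = 5.85e-10) and 0.88 for Id2 (7.1e-08) lay just under 2-fold. By the adjusted p alone, 6 of the 7 genes passed in AM580, beside 57% of all genes. The median log2 fold change of the 7 was 0.88, against -0.03 over all genes tested. Both the count and the median hold Bmp7, which passed the filter only through groups with AM580 at 48 h, where it was high.

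Vitamin C lowered no gene by 2-fold (0 of 7 called in Vc at 48 h beside 0.047% of all genes). In limma 5 had an unadjusted p under 0.05. For counts under an unadjusted p, here and below, no share over all genes was computed, and nothing is read from them. By the adjusted p alone 5 passed, all lower, beside 6.07% of all genes lower: Id3 (log2 fold change -0.59), Id2 (-0.52), Bmp4 (-0.50), Id1 (-0.45) and Smad7 (-0.28). Added to AM580, it gave lower Id levels too, again below 2-fold: V580 against AM580 at 48 h differed by -0.79 for Id2 (limma adjusted p = 1.96e-06), -0.71 for Id1 (1.79e-07) and -0.50 for Id3 (0.000144), and Smad6 did not pass (adjusted p = 0.439). None of the 7 was called, beside 0.263% of all genes, and 5 had an unadjusted p under 0.05. At 24 h the same comparison called none either (0.0658% of all genes; 3 with an unadjusted p under 0.05). The test of whether vitamin C acted differently with and without AM580 called 0 of the 7 (0.122% of all genes, 3 with an unadjusted p under 0.05). By the adjusted p alone Id1 passed (-0.26, limma adjusted p = 0.0464), but not in edgeR on recovered fragments (-0.26, adjusted p = 0.0981).

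Of the ligands, Bmp7 stood at 0.801 and 0.674 FPKM in Con, 0.692 and 0.830 in Vc, 1.66 and 1.51 in AM580, and 1.33 and 1.50 in V580 at 48 h. Its libraries with AM580 lay above those without, at a log2 fold change of 0.57 (limma adjusted p = 2.45e-05) in AM580 and 0.47 in V580 (0.000138), below 2-fold. It was under 1 FPKM in all other libraries and so passed the filter only through the groups where it was high. Bmp2, not tested on FPKM, had 28 and 24 fragments in AM580 at 48 h against 6 and 4 in Con. In edgeR on recovered fragments, a test added after the data were seen, Bmp2 was higher by a log2 fold change of 2.46 ± 0.47 (adjusted p = 0.000284) and Bmp7 by 1.13, so that 4 genes were called. The share of all genes called by that test was not computed. By that test Bmp2 was lower in V580 than in AM580 at 48 h (-1.67, edgeR adjusted p = 0.0111).

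Smad7, unlike Smad6, was not higher with AM580. It stood at 19.4 and 20.5 FPKM in Con, 15.5 and 16.3 in AM580, and 14.6 and 14.4 in V580 at 48 h. The log2 fold changes were -0.31 (limma adjusted p = 2.3e-05) and -0.44 (7.57e-07), both below 2-fold.

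From 24 h to 48 h 2 of the 7 were called in Con (7.72% of all genes). Bmp4 stood at 9.30 and 10.0 FPKM at 24 h and at 2.64 and 1.88 at 48 h, a log2 fold change of -1.72 (limma adjusted p = 9.46e-10). Id2 fell from 36.9 and 43.1 FPKM to 17.5 and 18.7 (log2 fold change -1.10, limma adjusted p = 2.57e-09). Bmp7 rose below 2-fold (0.43, limma adjusted p = 0.00021), and in edgeR on recovered fragments by 1.36 (adjusted p = 0.000171), which made 3 called, with no share over all genes computed. In AM580 cells, Bmp4 was at 14.2 and 13.7 FPKM at 24 h and 2.02 and 1.55 at 48 h.

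At 24 h no gene was called with Vc, AM580 or V580 (0.0846%, 0.404% and 0.695% of all genes). In limma 2, 3 and 6 of the 7 had an unadjusted p under 0.05, a rule for which no share over all genes was computed. Smad6 was at 2.79 and 3.21 FPKM in Con, 4.73 and 4.29 in AM580, and 5.76 and 6.19 in V580, above Con in each library with AM580. Its log2 fold change in V580 was 0.80 (limma adjusted p = 1.01e-06) and in AM580 0.46 (0.000425). Id1 in AM580, at 49.1 and 49.8 FPKM, lay close to Con at 45.8 and 46.2 and did not pass. The effect of AM580 differed between 24 h and 48 h for Smad6 (difference of the log2 fold changes 1.14, limma adjusted p = 1.13e-06) and Id2 (1.01, 2.46e-06), the 2 called beside 1.9% of all genes. By the adjusted p alone all 7 passed in limma, beside 35% of all genes. They include Bmp7, which was tested only through groups with AM580 at 48 h, where it was high. In edgeR on recovered fragments Bmp7 did not pass (0.94, adjusted p = 0.0619), and the others of the 7 did.

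**Figure D2:**
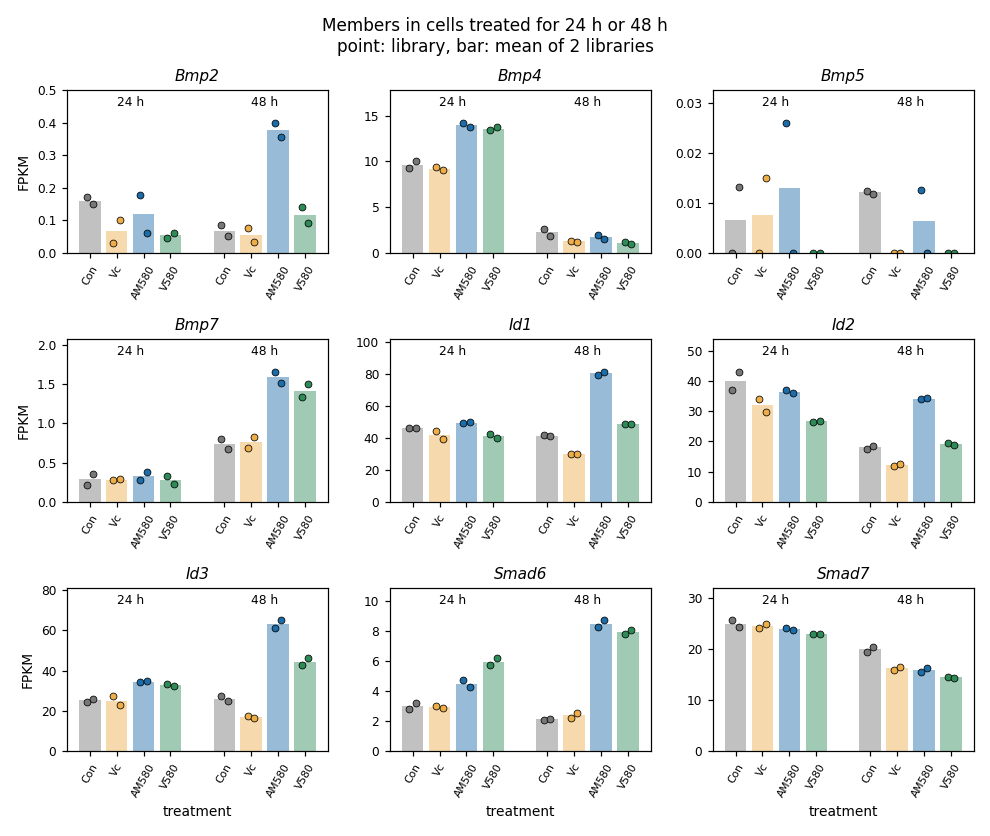
FPKM (y axis) of each gene in Con, Vc, AM580 and V580 cells at 24 h and 48 h; each point is 1 library and each bar the mean of 2. At 48 h the AM580 libraries of Id1, Id2 and Id3 lie above the rest, and Smad6 is high in AM580 and V580 alike.

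**Figure D3:**
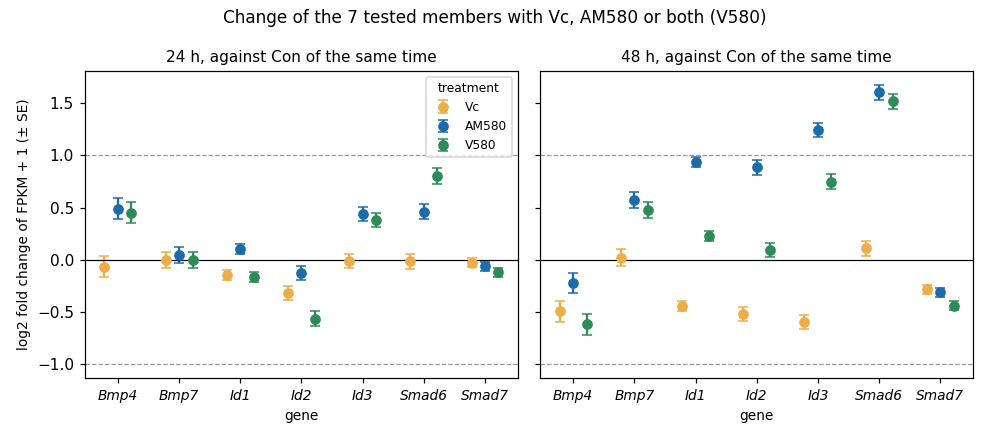
Log2 fold changes (y axis, on FPKM + 1, with SE) of the 7 tested genes in Vc, AM580 and V580 against Con of the same time, at 24 h and 48 h. At 48 h AM580 stands at 1.25 for Id3 and 1.61 for Smad6, and Vc is below 0 for the 3 Id genes.

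Other pathway genes at 48 h had 36 of the 59 tested. With AM580, 6 rose and 1 fell (2.33% and 0.902% of all genes), and among those that rose were the other targets Msx1, from 1.55 to 11.9 FPKM (log2 fold change 2.34), Gata2 (1.12) and Gata3 (1.10). Of the 9 other targets listed 4 were tested, and Gata2 and 1 more of them passed the filter only through groups with AM580 at 48 h, where they were high, so nothing is read from the share that rose. The co-receptor Rgma (1.12, tested only through groups with AM580) and the regulator Ski, a nuclear repressor of Smads (1.10), rose, and the antagonist Fst fell (-1.43). None of the tested receptors and signal Smads was called. With V580, 1 rose, Msx1 (1.37), and 1 fell, Fst (-1.80), beside 1.84% and 1.34% of all genes. Of the marker lists, 6 pluripotency genes summed to 573 to 584 FPKM in Con and 279 to 295 in AM580 at 48 h. Only 2 of the 6 trophoblast genes were in the FPKM table. They summed to 32.7 to 33.3 FPKM in Con, 99.5 to 105 in AM580 and 41.8 to 45.04 in V580. The part of both lists in these results was not tested.

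The third comparison set V580 cells of days 4 to 10 against E12.5_GC. Relative to E12.5_GC, V580 cells had less Bmp2 and Bmp5 and more Bmp4 on each day, and more Smad6 on days 8 and 10. All 9 genes were tested. Of them 3 were called on day 4 (20.4% of all genes), 3 on day 6 (15.2%), 4 on day 8 (13%) and 4 on day 10 (16.4%). Each count holds Bmp5, which was tested only through E12.5_GC, where it was high. The 4 comparisons share the E12.5_GC libraries.

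Bmp2 stood at 56.1, 32.6 and 38.1 FPKM in E12.5_GC, at 2.89 to 3.20 on day 4, 3.57 to 4.24 on day 6, 5.71 to 6.40 on day 8 and 11.2 to 11.5 on day 10. Each day lay above the one before it and all lay below E12.5_GC. The log2 fold change against E12.5_GC was -3.39 ± 0.14 on day 4 (SE; limma adjusted p = 1.06e-11) and -1.77 ± 0.14 on day 10 (2.45e-08).

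Bmp4 stood at 1.93 to 2.67 FPKM in E12.5_GC, at 12.7 to 12.96 on day 4, 7.95 to 8.98 on day 6, 9.41 to 10.3 on day 8 and 16.3 to 17.4 on day 10. It was thus the reverse of Bmp2, with all V580 libraries above E12.5_GC. The log2 fold change was 2.08 ± 0.076 on day 4 (limma adjusted p = 3.64e-12) and 2.45 ± 0.076 on day 10 (8.28e-13). In E12.5_GC Bmp2 had the higher level per length (42.3 ± 12.3 against 2.28 FPKM, SD, n = 3), and in day 10 cells Bmp4 did (16.8 against 11.4 FPKM).

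Bmp5 stood at 1.86 to 3.20 FPKM in E12.5_GC and at 0.268 to 0.513 in the 12 V580 libraries, which did not overlap with it. The log2 fold changes on the 4 days ran from -1.43 to -1.26 (limma adjusted p at most 3.76e-08). Bmp5 passed the filter of 1 FPKM only through E12.5_GC, where it was high, so a difference from E12.5_GC was built into its being tested. Bmp7 stood at 6.38 to 7.66 FPKM in E12.5_GC and 8.76 to 12.1 in V580 cells, higher in each library but below 2-fold (0.28 to 0.62 on the log2 scale).

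Smad6 stood at 13.2 to 13.9 FPKM in E12.5_GC, 16.6 to 18.5 on day 4, 19.0 to 20.3 on day 6, 29.7 to 30.6 on day 8 and 39.5 to 41.6 on day 10. No day overlapped another. Smad6 was called on day 8 (1.09, limma adjusted p = 1.61e-10) and day 10 (1.51 ± 0.053, 3.42e-12). Smad7 stood at 18.4 to 22.2 FPKM in E12.5_GC and 22.4 to 32.9 in V580 cells, and was not called on any day.

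The Id genes in E12.5_GC varied with the library: Id1 stood at 179, 202 and 347 FPKM, Id2 at 47.9, 48.8 and 84.6, and Id3 at 141, 180 and 259. The third library was the high one for all 3 genes, and 3 erythroid genes summed to 4435, 1693 and 1038 FPKM in the same libraries, the part of which was not tested. On day 4 Id1 was at 143 to 145 FPKM and Id3 at 111 to 118, below all E12.5_GC libraries, and on day 10 Id1 was at 225 to 235 and Id3 at 227 to 233, within their range. None of the Id genes was called against E12.5_GC on any day. By the adjusted p alone all 3 were lower on day 4, Id1 by a log2 fold change of -0.68 (limma adjusted p = 0.0022), Id3 of -0.70 (0.000645) and Id2 of -0.46 (0.0201), and Id2 was higher on days 8 (0.48, 0.0188) and 10 (0.38, 0.0471).

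Between successive days none of the 9 was called (5.08%, 2.55% and 1.29% of all genes). In limma 7, 6 and 5 of the 9 had an unadjusted p under 0.05, a rule for which no share over all genes was computed. By the adjusted p alone, genes moved both ways. From day 4 to day 6, Id2 (0.60, limma adjusted p = 0.00709) and Smad6 (0.15) were higher, and Bmp4 (-0.53, 4.93e-05) and Smad7 (-0.21, 0.0479) lower. From day 6 to day 8, Smad6 (0.59), Id3 (0.65, limma adjusted p = 0.00278), Bmp2 (0.51) and Id1 (0.46) were higher and Bmp7 lower (-0.34, 0.00115). From day 8 to day 10, Bmp2 (0.82, limma adjusted p = 0.000399), Bmp4 (0.73), Smad6 (0.41) and Bmp7 (0.28) were higher. Id1 and Id3 levels ran together across the 13 groups of the FPKM table: of 11920 genes, Id1 was the nearest to Id3 (root mean square difference of standardised profiles 0.139), and Id3 the second nearest to Id1 after Trpc4ap (0.125). The nearest genes were Micall2 for Bmp2 (0.116), Cryab for Bmp4 (0.246), Adamts16 for Bmp5 (0.131), Prkch for Bmp7 (0.0763), Rnf19a for Id2 (0.216), Herpud2 for Smad6 (0.159) and Cald1 for Smad7 (0.318). These groups share treatment and time, and the likeness is a description.

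**Figure D4:**
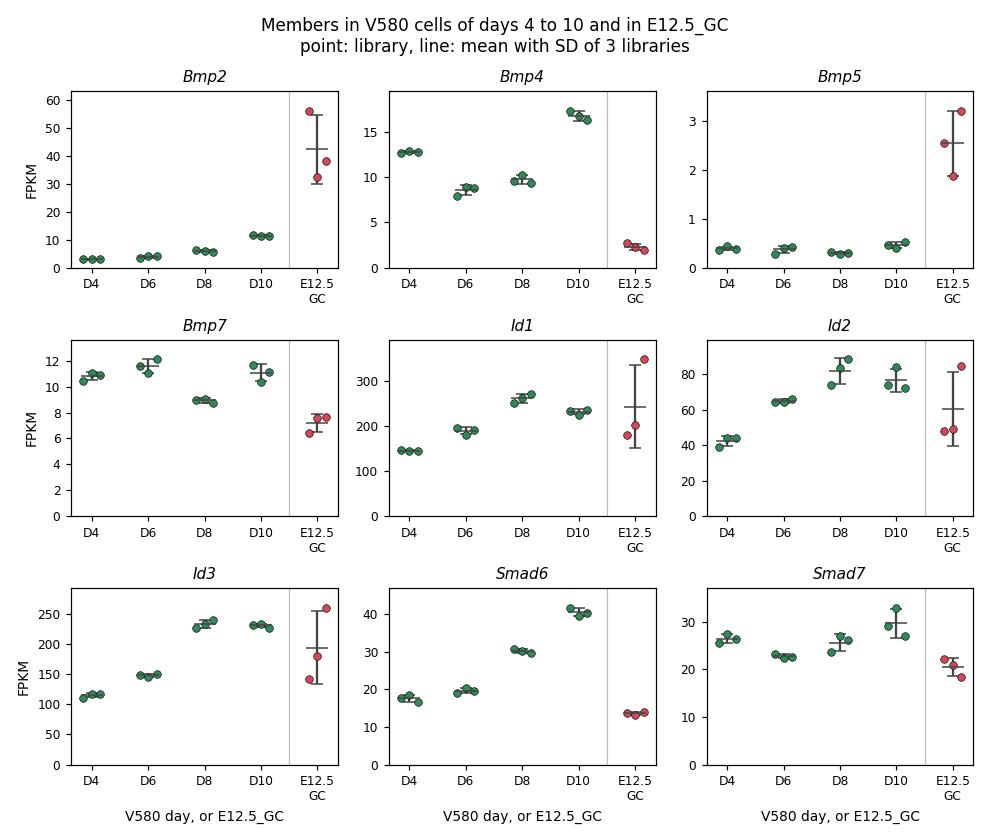
FPKM (y axis) of each gene in V580 cells of days 4, 6, 8 and 10 and in E12.5_GC; each point is 1 library, and lines are the mean with SD of 3. Bmp2 climbs to 11.4 FPKM on day 10 and stays below E12.5_GC, Bmp4 lies above it on each day, and Smad6 reaches 40.5.

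Of the other pathway genes 43 were tested in the days, and 15 were higher and 3 lower on day 10 than in E12.5_GC (9.16% and 7.23% of all genes; median log2 fold change of the 43, 0.44). Antagonists were higher in 6 of 12, among them Nog (1.10 to 17.6 FPKM, log2 fold change 3.14) and Crim1 (2.24), and Fst was lower (58.6 to 2.69 FPKM, -4.01). The ligand Gdf6, from 2.70 to 44.3 FPKM, was higher by 3.64. The signal Smads Smad9 (1.60) and Smad1 (1.24) were higher, 2 of 4 tested. Among other targets Gata2 (2.47), Msx2 (2.39) and Gata3 (1.42) were higher and 1 of the tested targets was lower. The type I receptor Acvrl1 was lower (-1.41) and no type II receptor was called. Erythroid genes were at or under 0.739 FPKM in V580 cells, 8 of the 9 interstitial markers, those in the FPKM table, summed to 1395 to 1715 FPKM on day 10 against 260 to 281 in E12.5_GC, and supporting-cell markers to 211 to 226 against 915 to 1111; their part in these differences was not tested.

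The 10x library of day 6 held 15412 barcodes, of which 15315 cells were kept, with a median of 9281 UMIs, and formed 12 clusters. With 1 library there is no test, and the intervals given are exact 95% Poisson intervals of summed UMIs scaled to CPM, covering counting error only. None of the 9 genes was among the 2000 variable genes that the clustering used, but clusters are groups of the same cells, so the levels are a description. Free RNA can add UMIs to any cell.

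Clusters 1 (3125 cells), 2 (1968 cells), 3 (1482 cells) and 5 (1052 cells) held most of the deep cells. Cluster 1 had the mesothelial markers Upk3b and Lrrn4 among its leading genes, cluster 2 cycling genes such as Mki67 and Aspm, and cluster 5 Wfdc2 and Cldn3. Cluster 3 was interstitial-like with all 9 interstitial markers. In at least 20% of its cells, cluster 1 held 3 of the 7 mesothelial and 6 of the 9 interstitial markers. Cluster 2 held 4 and 7 of these, cluster 3 held 1 and 9, and cluster 5 held 3 and 4. Cluster 7 (928 cells) was led by Srgn, Cubn and Rbp4, with 8 of 10 extraembryonic endoderm markers and also Fst. Cluster 0 (3416 cells, median 1464 UMIs) stayed unnamed.

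The ligands were divided between clusters. Bmp4 stood at 31.0 CPM (29.3 to 32.8) in cluster 1, 32.8 (31.0 to 34.8) in cluster 2, 23.2 (21.3 to 25.3) in cluster 3 and 24.3 (22.2 to 26.7) in cluster 5, against 4.55 (3.72 to 5.50) in cluster 7. Bmp2 stood at 22.5 CPM (20.6 to 24.5) in cluster 7 against 10.2 to 15.0 in clusters 1, 2, 3 and 5. Among these 5 clusters, cluster 7 was thus lowest in Bmp4 and highest in Bmp2, with intervals that did not overlap. Among the other clusters low Bmp4 went with high Bmp2 in cluster 9 (5.66 and 22.6 CPM), but cluster 8 (660 cells) had Bmp4 at 4.92 CPM (3.37 to 6.95) and Bmp2 at 1.85 (0.953 to 3.22), and cluster 6 (1009 cells) had 4.06 (2.22 to 6.82) and 9.87 (6.84 to 13.8).

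Bmp7 was highest among these clusters in cluster 5, at 48.4 CPM (45.3 to 51.6), followed by clusters 2 and 1 at 33.3 and 33.1, which overlapped, cluster 3 at 18.0 (16.3 to 19.8) and cluster 7 at 6.62 (5.62 to 7.76). Bmp5 was scarce, with 70 UMIs in the library, 31 of them in the interstitial-like cluster 3, at 1.35 CPM (0.918 to 1.92) against 0.430 over all cells.

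Cluster 7, low in Bmp4 and Bmp7, was the lowest of these 5 clusters for the targets and inhibitory Smads too. Id3 stood at 829 (820 to 838), 881 (871 to 891), 862 (850 to 874) and 527 CPM (516 to 537) in clusters 1, 2, 3 and 5, and at 164 (159 to 170) in cluster 7. Id2 stood at 431, 400, 268 and 347 CPM and at 104 in cluster 7, and Smad6 at 43.1, 39.9, 29.0 and 27.8 CPM and at 10.95. Id1 differed less, at 636, 585, 358 and 478 CPM and 317 in cluster 7, and Smad7 at 117, 108, 116 and 106 CPM and 77.6. These low levels were not particular to cluster 7. Clusters 6 and 8 had Bmp7 at 7.55 and 7.84 CPM, Id3 at 235 and 180, Smad6 at 13.4 and 12.3, and Id1 at 310 and 154. The other clusters did not all follow: cluster 9 (270 cells) had Bmp4 at 5.66 CPM and Bmp7 at 7.93 but Smad7 at 193 (165 to 224), and cluster 4 (1314 cells) had Bmp4 at 32.7 and Bmp7 at 34.8 but Id1 at 299 (281 to 318). Among the 5 clusters, Id1 and Id3 differed in their order: cluster 3 was near the top for Id3 and well below clusters 1, 2 and 5 for Id1.

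Thinned to 3000 UMIs per cell, which left 10237 cells, a UMI of Id3 was found in 85.1% of cells of cluster 1 and 32.2% of cluster 7, against 97.9% and 79.0% before thinning, where the median depths were 12156 and 22737 UMIs. For Id1 the thinned shares were 78.3% and 57.1%, for Bmp4 7.92% and 1.20%, and for Bmp2 2.81% and 6.55%. The difference between these clusters thus kept its direction at equal depth. Over all cells, Id3 was seen in 78.5% (73.4% thinned), Id1 in 74.5% (67.5%), Id2 in 66.4% (53.9%), Smad7 in 47.6% (26.4%), Smad6 in 23.2% (9.03%), Bmp7 in 20.6% (7.87%), Bmp4 in 15.3% (6.50%), Bmp2 in 8.49% (3.14%) and Bmp5 in 0.392% (0.117%).

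**Figure D5:**
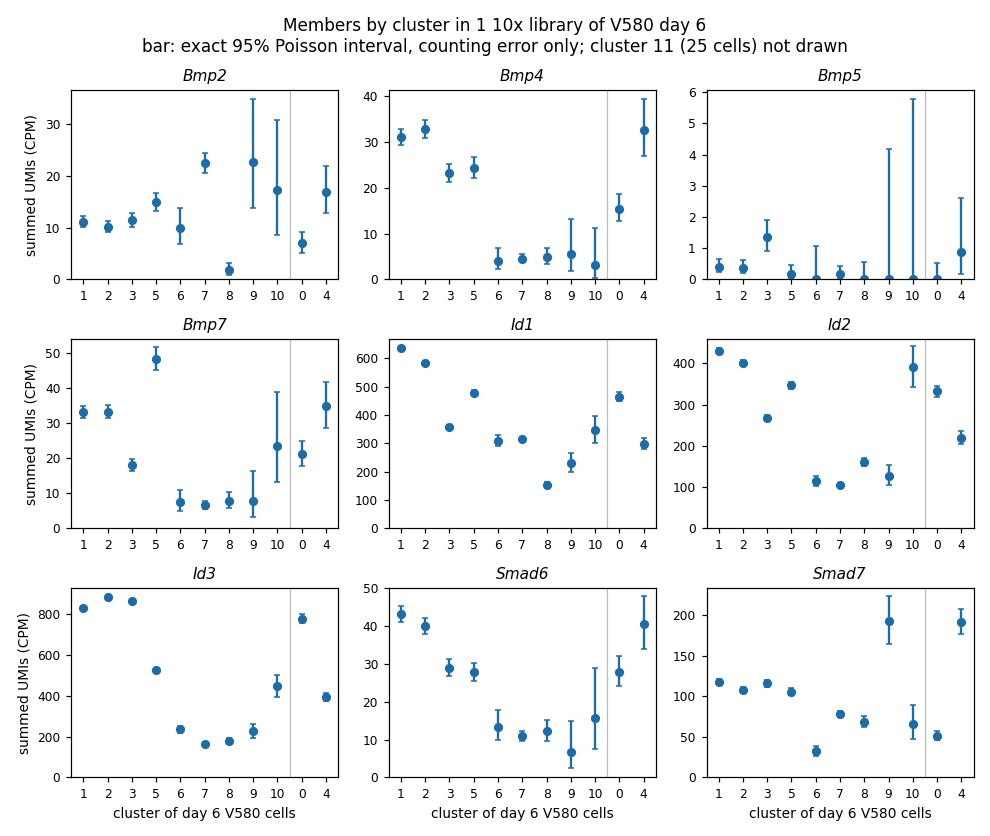
Summed UMIs as CPM (y axis) of each gene by cluster of day 6 V580 cells in 1 10x library, with exact 95% Poisson intervals for counting error only. Cluster 7 is low in Bmp4, Bmp7, Id2, Id3 and Smad6 and high in Bmp2 (22.5 CPM), and Bmp7 stands highest in cluster 5 (48.4 CPM).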

How the data were processed

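Per the labels and methods, bulk reads were aligned to mm10 with HISAT2 and the authors deposited counts per gene symbol for the GSC stages, made with featureCounts. The authors deposited FPKM for the treatments, days and E12.5_GC; RSEM is among the tools in the submitters' processing notes, but the tool behind the FPKM is not given in the sources used here. The authors deposited UMI counts for 1 10x library (Cell Ranger). A further 10 columns of values, which the labels did not tie to single samples, were not used.

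Stage counts were filtered (filterByExpr, 16398 of 22173 genes), TMM scaled and fitted in 1 edgeR 4.0.16 quasi-likelihood model (8 libraries, R 4.3.3). A gene was called where its p, adjusted by Benjamini-Hochberg (BH), was under 0.05; DESeq2 1.42.0 was an alternative. CPM are TMM scaled. FPKM were tested with limma 3.58.1 on log2(FPKM+1), with a pseudocount of 1, in 15 libraries (days; FPKM of at least 1 in 3; 11512 genes) and 16 libraries (treatments; in 2; 10644 genes), where a call also needed a change of at least 2-fold. Since FPKM steps scale with 1 fragment, fragments were recovered with GENCODE vM21 exon lengths: 96.5% of values lay within 0.05 of a whole number, and edgeR on them was added after the data were seen. 10x cells with 200 genes or more and no more than 40% mitochondrial counts were clustered with scanpy 1.11.5 and leidenalg 0.10.2 (2000 variable genes, 20 components, 20 neighbours, resolution 0.5); doublets were not removed.

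Genes were named as the 9 members, and of the pathway list by role at most the 3 largest called changes per role. The members, lists and tests were chosen with earlier results of these data known. Alternatives covered normalization, low-value filters, the fold threshold, the pseudocount, the test, lane and length terms, a replicate block and leaving out each library. Depth was 12694769 to 22259044 counts per stage library; intervals cover counting error only.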

Additional observations from a re-analysis of the deposited data

Results flagged for a closer look

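The effect of AM580 against Con differed between 48 h and 24 h, tested as an interaction in limma, for all 7 tested genes by the adjusted p. The differences of the log2 fold changes were 1.14 for Smad6, 1.01 for Id2, 0.84 for Id1, 0.81 for Id3, 0.53 for Bmp7, -0.25 for Smad7 and -0.71 for Bmp4, with 2 libraries per group. Those of Smad6 and Id2 reached 2-fold. Bmp7 was tested only through groups with AM580 at 48 h, where it was high. In edgeR on recovered fragments the difference of Bmp7 did not pass (adjusted p = 0.0619). The effect of vitamin C at 48 h differed with and without AM580 for Id1, at -0.26, by the adjusted p in limma. In edgeR on recovered fragments it did not pass (adjusted p = 0.0981). No group had 4 or more libraries, so single libraries were not tested for standing apart.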

How the results depend on the processing

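The 23 comparisons gave a count of called genes each, and 145 pairs of a gene and a comparison passed an adjusted p in some setting. Of the counts under settings other than leaving out a library, 141 kept within 1.5 times and 25 did not. At least 2-fold left 1 gene for E13.5 and 1 for E16.5 against E12.5, and 2 for E16.5 against E13.5; fitting only E12.5 and E13.5 gave 5. Without the fold threshold, the counts on days 4, 6, 8 and 10 against E12.5_GC were 9, 5, 7 and 7, and 4, 5 and 4 between successive days. Without it, Vc, AM580 and V580 against Con gave 1, 3 and 5 at 24 h and 5, 6 and 6 at 48 h, V580 against AM580 3 and 4, Con over time 6, and the interactions 7 (time) and 1 (vitamin C). By the same rule 57% of all genes passed for AM580 at 48 h, 35% for the interaction with time, and 6.07% were lower for Vc at 48 h. Nothing is read from the other counts, which are given without such a share. edgeR on recovered fragments, added after the data were seen and without a share over all genes, gave 1 for V580 at 24 h, 4 for AM580 at 48 h and 1 for V580 against AM580 at 48 h. The cause of these moves was the threshold for the first and was not tested for the last.

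Directions that turned were those of Id3 at E13.5 against E12.5 with a length term (-0.32) and with the replicate block and that term (-0.31), Id3 at P6w against E12.5 with a lane term (-0.95), Id1 at E16.5 against E13.5 with a length term (0.028) and Id2 there with a lane term (-0.054); the cause was not tested. The lane term also ended the calls of Bmp2, Bmp5 and Bmp7 at E16.5 against E12.5. Leaving out 1 library at a time gave log2 fold changes of -1.59 to 0.29 for Id1 and -0.98 to 0.053 for Id3 at E16.5 against E12.5, of -1.75 to 0.13 for Id1 and -0.048 to 0.10 for Id2 at E16.5 against E13.5, of -1.73 to 0.15 for Id1 at P6w against E16.5, and of -0.022 to 0.46 and -0.20 to 0.28 for Id1 on days 8 and 10 against E12.5_GC. The counts then ran from 1 to 5 for E16.5 against E12.5, 2 to 4 for E16.5 against E13.5, 1 to 2 for Con over time and 1 to 2 for the interaction of time and AM580.

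The replicate numbers did not pair the samples (0 of 12 stage pairs, 9 of 30 day pairs and 14 of 56 treatment pairs correlated above 0.1). With a replicate block the count for P6w against E16.5 was 8 instead of 7, and with the block and the length term 2 for E13.5 and 5 for E16.5 against E12.5; the other counts did not change. Having 2 libraries per group limits the stage and treatment results, and Smad6 and Bmp5 in the stages rest on at most 95 counts per library.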

Other observations

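The ratio of Id3 to Id1 counts within a library in the stage counts was 29.0 and 29.7 at E12.5, then 29.8 and 32.3 at E13.5, 44.9 and 24.9 by E16.5, and 80.9 and 87.3 at P6w. In the recovered fragments of E12.5_GC it was 1.22, 1.37 and 1.15, and over all 31 FPKM libraries 0.824 to 1.60. The same 2 genes thus stood in different ratios in the 2 tables for gonad cells of the same embryonic day, and the tables were made separately. The cause was not tested, and Id3 levels were compared only within a table.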
